A study of Mus musculus with 6 samples.

Results

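The gene set described here is the receptor RANK with the adaptors and kinases directly behind it, 10 mouse genes chosen by symbol: Tnfrsf11a, Traf1, Traf2, Traf3, Traf5, Traf6, Map3k7, Tab2, Map3k14 and Ikbkb. All 10 were found among the 26529 genes of the table. The study sequenced RNA of wild-type (WT) C57BL/6 bone marrow-derived macrophages, from mice 8 weeks old, in 6 libraries of 2 labelled groups. The 3 libraries labelled OCP (osteoclast precursors) came from culture day 3 and the 3 labelled OC (osteoclasts) from culture day 6. All cultures contained the survival factor M-CSF (20 ng/ml) and RANKL (10 ng/ml), the ligand of RANK, so none of these libraries represents cells without RANKL. Values are RPKM, reads divided by gene length and by the library's total of reads assigned to genes. Whether replicates are separate mice or cultures is not stated, and p-values therefore measure only the spread between libraries, which may be technical. Most transcripts that define osteoclasts were abundant in all libraries. They were lower in those labelled OC, against the order the labels imply, and groups are called here by their labels.

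RANK is the receptor through which RANKL turns macrophages into osteoclasts. It has no enzyme activity of its own. Its cytoplasmic tail recruits TRAF proteins, and TRAF6 in particular builds ubiquitin chains that bring in the kinase TAK1 (encoded by Map3k7) through its chain-binding partner TAB2. TAK1 then activates the IKK complex, which frees NF-kB, and the MAP kinases. In a separate, slower arm, TRAF3 together with TRAF2 keeps the kinase NIK (encoded by Map3k14) at a low level by having it degraded until receptor engagement removes TRAF3. Much of this pathway is controlled on proteins, by ubiquitin and phosphate, which RNA levels do not measure.

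From OCP to OC the receptor transcript fell, the transcripts of TAK1 and NIK rose, and most of the adaptors did not pass the test. Of the 10 genes, 2 fell (Tnfrsf11a and Traf5), 2 rose (Map3k7 and Map3k14) and 6 did not pass at an adjusted p under 0.05 in limma. Over all 12301 genes tested, 55.6% passed, 32.1% lower and 23.5% higher in OC, so the share of these genes that passed was not above the background. Every change was small. All log2 fold changes here are OC minus OCP on the scale of log2(RPKM + 1), and those of the 10 genes lay between -0.42 for Tnfrsf11a and 0.28 for Map3k14. Which gene changed most depended on the scale. In percent Map3k14 changed most, with a rise of 31.3%, while Traf5 fell by 26.9% and Tnfrsf11a fell by 26.6%. By voom on the recovered reads the change of Map3k14 was also the largest, at 0.44. As a ratio of the larger to the smaller mean, Traf5 changed most at 1.37, then Tnfrsf11a at 1.36 and Map3k14 at 1.31. The median over the 10 genes was -0.03, beside -0.05 over all tested genes. The groups did not overlap for 5 of the 10, 3 lower and 2 higher, where 62.7% of all tested genes had groups apart, 36% lower and 26.7% higher.

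**Figure D1:**
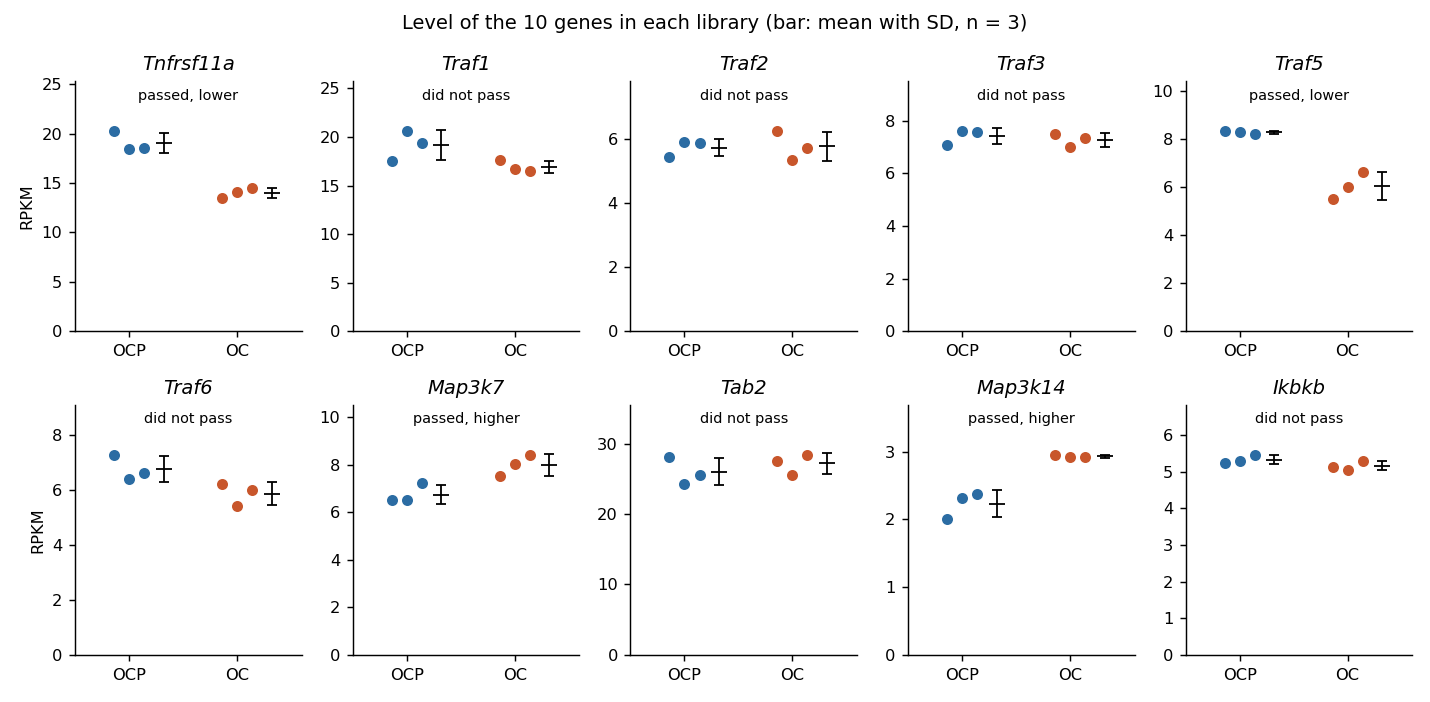
RPKM (vertical axis, from 0, scaled for each gene) of the 10 genes in the 3 OCP and 3 OC libraries, with a point per library and a bar for the mean and SD. The OC points of Tnfrsf11a and Traf5 lie below all OCP points, those of Map3k7 and Map3k14 lie above them, and those of Traf2, Traf3 and Tab2 overlap with them.

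Tnfrsf11a, the gene of RANK itself, lies at 105780718 to 105847981 on chromosome 1 (GRCm38, plus strand). It was at 20.3, 18.4 and 18.6 RPKM in OCP replicates 1, 2 and 3 and at 13.5, 14.1 and 14.5 RPKM in OC replicates 1, 2 and 3. All OC libraries were below all OCP libraries. The level fell by 26.6%, from 19.1 ± 1.02 to 14.01 ± 0.491 RPKM (SD, n = 3 per group), a log2 fold change of -0.42 (SE 0.05, limma adjusted p = 0.00037). Between 2799 and 5107 reads per library lay behind these values. In bulk RNA, fewer cells that carry RANK and less RANK transcript per cell cannot be told apart. Markers of the osteoclast moved in the same direction. All 10 genes of that marker list fell, and the collagen-degrading protease Ctsk, its most abundant member, went from 3249 ± 108 to 1711 ± 25.0 RPKM. The part of this shift in the fall of Tnfrsf11a was not tested.

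The ligand and the decoy receptor were hardly transcribed in these cultures, in which RANKL was added as a protein. Tnfsf11, which encodes RANKL, had 0, 2 and 0 reads in the OCP libraries and 0, 8 and 0 reads in the OC libraries. Tnfrsf11b, which encodes osteoprotegerin, the soluble decoy that stromal cells make to trap RANKL, had 54, 40 and 52 reads in OCP and 38, 46 and 74 in OC. Both were under the filter of 1 RPKM in at least 3 libraries and were not tested, as was Lgr4, another RANKL receptor. Transcripts of stromal cells and osteoblasts, the usual source of both, were low: the 9 markers in the table summed to between 3.35 and 3.50 RPKM in OCP and between 3.27 and 3.48 RPKM in OC.

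Among the TRAF adaptors, Traf5 was the only one of the 5 that passed. Traf5, an adaptor that binds RANK and other TNF receptors, lies at 191997205 to 192092559 on chromosome 1 (minus strand). Its OCP libraries were at 8.34, 8.31 and 8.21 RPKM and its OC libraries at 5.52, 6.00 and 6.65 RPKM. The OC libraries were all lower and differed more among themselves than the OCP libraries did. This difference in spread was not tested or set against counting error. The mean fell by 26.9%, from 8.29 ± 0.0695 to 6.06 ± 0.570 RPKM (log2 fold change -0.40, SE 0.07, adjusted p = 0.0014). Exons of Traf5 share 205 bases, 4.49% of its length, with the antisense gene Gm26879, which was at 7.15, 5.98 and 6.60 RPKM in OCP and 4.01, 4.58 and 5.11 RPKM in OC. The library kit kept the strand, per the labels, but whether the counting used it is not stated, and reads in those shared bases cannot be assigned to one gene.

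Traf6, the ubiquitin ligase that couples RANK to TAK1 and without which mice do not form working osteoclasts, lies on chromosome 2 (101678429 to 101701669). It was at 7.29, 6.39 and 6.62 RPKM in OCP and at 6.21, 5.43 and 5.99 RPKM in OC. The groups were apart by a narrow margin, with the highest OC library just under the lowest OCP library. The log2 fold change was -0.18 (SE 0.07, 95% interval without adjustment -0.34 to -0.01), and it did not pass (adjusted p = 0.062). It passed after quantile normalization (adjusted p = 0.034), with a block for the replicate number (adjusted p = 0.043) and by voom on the recovered reads (adjusted p = 0.049), and over all 15 alternatives its adjusted p ranged from 0.034 to 0.19.

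Traf1, an adaptor without the RING domain of the other TRAF proteins and a known NF-kB target gene, was the most abundant of the 5. It was at 17.5, 20.6 and 19.4 RPKM in OCP and at 17.6, 16.7 and 16.5 RPKM in OC. One OCP library, replicate 1, lay within the OC range. The log2 fold change of -0.17 (SE 0.07) did not pass (adjusted p = 0.062). Without OCP replicate 1 it was -0.23 and passed (adjusted p = 0.012, in a range of 0.012 to 0.18 over 15 alternatives).

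The transcripts of TRAF3 and TRAF2, whose proteins together hold NIK in check, did not pass. Traf3 was at 7.07, 7.61 and 7.59 RPKM in OCP and at 7.50, 6.99 and 7.33 RPKM in OC, and the groups overlapped. Its log2 fold change was -0.03, with a 95% interval of -0.15 to 0.10 (adjusted p = 0.72). Traf2 was at 5.42, 5.89 and 5.85 RPKM in OCP and at 6.24, 5.32 and 5.71 RPKM in OC, again with overlapping groups. Its log2 fold change was 0.01, with an interval of -0.15 to 0.16 (adjusted p = 0.94). These intervals, given without adjustment, hold changes of up to about 0.16 on the log2 scale in either direction.

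Behind the adaptors, Map3k14 and Map3k7 rose. Map3k14, the gene of NIK, lies at 103219762 to 103267472 on chromosome 11 (minus strand) and had the lowest level of the 10. It was at 2.01, 2.31 and 2.38 RPKM in OCP and at 2.95, 2.92 and 2.92 RPKM in OC. All OC libraries were above all OCP libraries. The OC values, from 677, 636 and 728 reads, lay close together, but this closeness was not set against counting error. The mean rose from 2.23 ± 0.197 to 2.93 ± 0.0194 RPKM, a ratio of 1.31 (log2 fold change 0.28, SE 0.07, adjusted p = 0.0072). With a pseudocount of 0.1 in place of 1, which shrinks a gene at this level less, the log2 fold change was 0.38. Its exons share 135 bases, 2.06% of the length, with 1700028N14Rik on the same strand, which was lower in OC (3.56, 3.55 and 3.06 RPKM) than in OCP (3.94, 3.91 and 4.48 RPKM).

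Map3k7, the gene of TAK1, lies at 31964097 to 32023467 on chromosome 4 (plus strand). It was at 6.51, 6.52 and 7.23 RPKM in OCP and at 7.54, 8.02 and 8.43 RPKM in OC. The groups did not overlap, and the highest OCP library came close to the lowest OC library. The mean rose from 6.75 ± 0.416 to 8.00 ± 0.445 RPKM, a ratio of 1.18 (log2 fold change 0.21, SE 0.06, adjusted p = 0.021). This call was lost without OCP replicate 1, OCP replicate 2, OC replicate 2 or OC replicate 3 (adjusted p from 0.057 to 0.071), with the value still higher in OC each time. Over all 15 alternatives its adjusted p ranged from 0.0010 to 0.071.

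TAB2 and IKK-beta, the partners on either side of TAK1, did not pass. Tab2, which reads the ubiquitin chains, was at 28.1, 24.3 and 25.6 RPKM in OCP and at 27.6, 25.6 and 28.4 RPKM in OC (log2 fold change 0.06, 95% interval -0.09 to 0.21, adjusted p = 0.45). The groups overlapped over most of their range. Ikbkb, the catalytic subunit that phosphorylates the NF-kB inhibitors, was at 5.23, 5.31 and 5.47 RPKM in OCP and at 5.14, 5.06 and 5.29 RPKM in OC. Its log2 fold change was -0.04 (interval -0.16 to 0.08, adjusted p = 0.55), and its replicates were the closest together of the genes that did not pass.

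The 4 genes that passed are shown by the 250 bases before their RefSeq start sites, since members of this set moved in both directions. For Tnfrsf11a, Map3k7 and Map3k14 this site lies inside the gene span given above, so part of the window does too. The only match of Map3k14 lies within its span, and the overlapping matches of Map3k7 reach into that of Map3k7. The sequences are from RefSeq on GRCm38.p6, which held an entry for 9 of the 10 genes, and each is written from 5′ to 3′ along the gene's strand. Capitals mark matches, on either strand, to a loose NF-kB motif (GGG, any 5 bases, then CC), where overlapping matches run together.
Tnfrsf11a (chr1:105780473-105780722, plus strand): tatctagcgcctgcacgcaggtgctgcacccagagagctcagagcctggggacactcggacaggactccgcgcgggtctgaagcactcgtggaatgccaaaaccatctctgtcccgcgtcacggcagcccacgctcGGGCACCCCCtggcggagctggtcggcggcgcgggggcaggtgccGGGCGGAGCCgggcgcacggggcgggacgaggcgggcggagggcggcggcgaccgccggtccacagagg
Traf5 (chr1:192092600-192092849, minus strand): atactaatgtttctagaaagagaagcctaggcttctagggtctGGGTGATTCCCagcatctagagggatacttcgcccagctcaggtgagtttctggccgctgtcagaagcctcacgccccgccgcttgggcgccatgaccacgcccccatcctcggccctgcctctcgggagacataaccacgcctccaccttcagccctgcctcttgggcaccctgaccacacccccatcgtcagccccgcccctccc
Map3k7 (chr4:31963857-31964106, plus strand): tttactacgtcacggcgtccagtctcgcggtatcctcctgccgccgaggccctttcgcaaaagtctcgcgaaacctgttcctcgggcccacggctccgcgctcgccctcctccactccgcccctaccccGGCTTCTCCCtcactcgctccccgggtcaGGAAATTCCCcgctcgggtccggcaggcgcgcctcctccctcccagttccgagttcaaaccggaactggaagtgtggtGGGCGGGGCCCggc
Map3k14 (chr11:103267402-103267651, minus strand): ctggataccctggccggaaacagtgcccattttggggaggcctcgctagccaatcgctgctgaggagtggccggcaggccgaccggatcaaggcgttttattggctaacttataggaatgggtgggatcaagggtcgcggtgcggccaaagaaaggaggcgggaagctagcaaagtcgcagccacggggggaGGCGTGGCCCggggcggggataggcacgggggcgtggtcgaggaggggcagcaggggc

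Both genes that fell and both that rose held this motif. Tnfrsf11a had 2 matches, Traf5 had 2 that overlap each other, Map3k7 had 4 of which 2 overlap, and Map3k14 had 1. In all, 7 of the 9 genes with an entry had at least 1 match, and the exceptions were Traf1 and both windows of Tab2. Counted by window, 7 of the 10 windows of these genes held the motif. Of all 32851 windows of this length, not matched for G and C, 45.8% held it. These windows are rich in G and C, at 73.6% for Tnfrsf11a, 62% for Traf5, 68% for Map3k7 and 65.2% for Map3k14, beside a median of 52.4% over all windows. No window of these 4 genes held the AP-1 motif TGANTCA or the NFAT motif TGGAAA on either strand, letters that 6.75% and 18.6% of all windows hold. Among the other members Traf1 had 1 match to the NFAT motif. A match is a match of letters only.

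Levels of partners were also set against each other within each library, as ratios of RPKM with the authors' lengths. The ratio of Traf6 to Tnfrsf11a, the signalling adaptor over its receptor, was 0.3598, 0.347 and 0.356 in OCP and 0.460, 0.386 and 0.415 in OC. It was higher in every OC library. The ratio of Traf3 to Map3k14, the brake over the kinase it restrains, was 3.52, 3.29 and 3.19 in OCP and 2.54, 2.39 and 2.51 in OC, lower in every OC library. For both the exact permutation test over libraries gave p = 0.10, two-sided, which is the smallest that 3 against 3 libraries allow, and p = 0.25 after adjustment over the 5 ratios computed. No ratio could therefore pass the threshold. Traf3 overlapped between the groups and Map3k14 rose, so their ratio largely restates the change of Map3k14. In the other ratio Traf6 did not pass and Tnfrsf11a fell.

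The other ratios overlapped between the groups. The ratio of Traf3 to Traf2 was 1.30 ± 0.00586 in OCP and 1.27 ± 0.0577 in OC (exact p = 0.50), with OC replicate 1 lowest at 1.20. Tab2 to Map3k7 was 3.86 ± 0.406 in OCP and 3.41 ± 0.238 in OC (exact p = 0.20). Traf1 made up 40.4% ± 1.95 of the summed RPKM of the 5 TRAF genes in OCP and 40.4% ± 1.16 in OC (exact p = 1). Within that sum Traf5 went from 17.5% ± 0.673 to 14.5% ± 1.52, Traf2 from 12.1% ± 0.199 to 13.7% ± 0.670, Traf3 from 15.7% ± 0.224 to 17.4% ± 0.0502 and Traf6 from 14.3% ± 1.49 to 14.01% ± 0.510. The levels of Traf2 and Traf3 themselves overlapped between the groups, while the sum went from 47.4 ± 1.61 to 41.9 ± 1.37 RPKM.

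**Figure D2:**
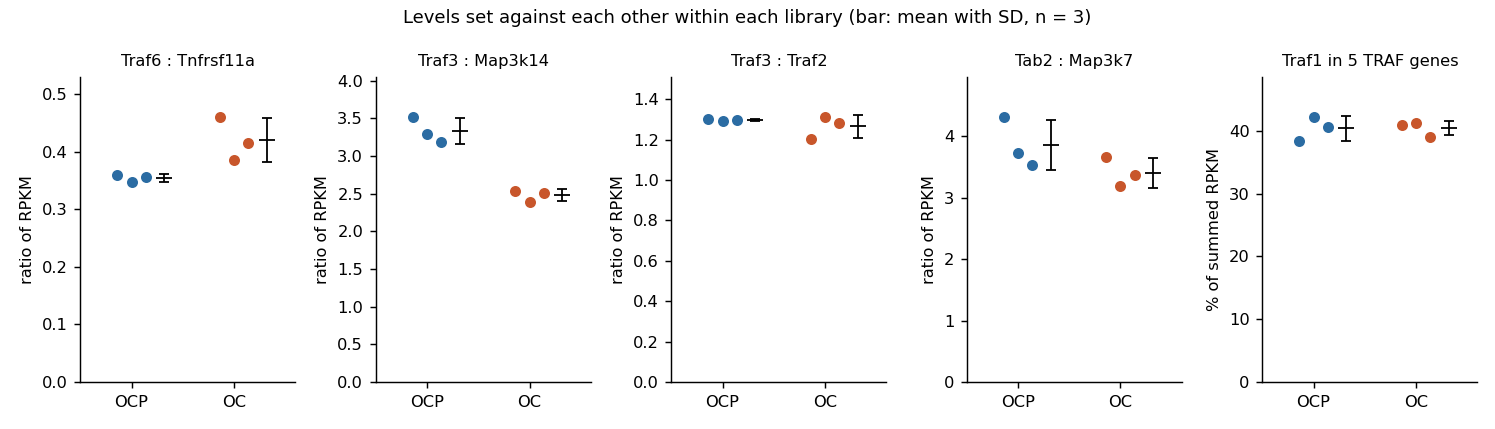
Ratios of RPKM within each library (first 4 panels) and the share of Traf1 in the summed RPKM of Traf1, Traf2, Traf3, Traf5 and Traf6 in percent (last panel), with a point per library and a bar for the mean and SD, n = 3 per group. The OC points of Traf6 to Tnfrsf11a lie above the OCP points, those of Traf3 to Map3k14 below them, and the other panels overlap.

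In order of RPKM in OCP, Tab2 was highest at 26.02 ± 1.92, followed by Traf1 at 19.2 ± 1.57 and Tnfrsf11a at 19.1 ± 1.02, whose ranges overlapped. Traf5 came next at 8.29 ± 0.0695, then Traf3 at 7.42 ± 0.304, Traf6 at 6.77 ± 0.466 and Map3k7 at 6.75 ± 0.416, where neighbours from Traf3 to Map3k7 overlapped. Traf2 at 5.72 ± 0.259 and Ikbkb at 5.33 ± 0.120 overlapped, and Map3k14 was lowest at 2.23 ± 0.197 RPKM. In OC the same 3 genes led and the same 3 came last, each of the leading 3 apart from its neighbours. Map3k7 had moved up to the fourth place at 8.00 ± 0.445 RPKM, and Traf5 had moved down to the sixth at 6.06 ± 0.570 RPKM, overlapping with Traf6 at 5.88 ± 0.402 RPKM and below Traf3 at 7.27 ± 0.258 RPKM.

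Both the order and the ratios depend on the length by which reads are divided. The authors' length covers all annotated exons of a gene, which for Ikbkb is 19078 bases, although its longest coding transcript has 3977 bases. For Traf1 these lengths are 8819 and 3436 bases, and for Tnfrsf11a 5985 and 5027 bases. Per kilobase of the longest coding transcript, a scale chosen after seeing the data, Traf1 led in OCP at 49.2 ± 4.03 RPKM, ahead of Tab2 at 36.4 ± 2.70, Ikbkb at 25.6 ± 0.577 and Tnfrsf11a at 22.7 ± 1.22. Map3k14 stayed last at 3.44 ± 0.303 RPKM on this scale. With these lengths the OCP ratio of Traf3 to Traf2 turned from 1.30 to 0.806 ± 0.00364, and that of Traf3 to Map3k14 went from 3.34 to 2.25 ± 0.114. In OC these were 0.787 ± 0.0359 and 1.67 ± 0.0532. For Traf1 the share in the TRAF sum was 52.0% ± 2.03 in OCP and 52.8% ± 1.41 in OC. A change of length multiplies all 6 libraries alike, so it moves no ratio of OC to OCP of a single gene.

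**Figure D3:**
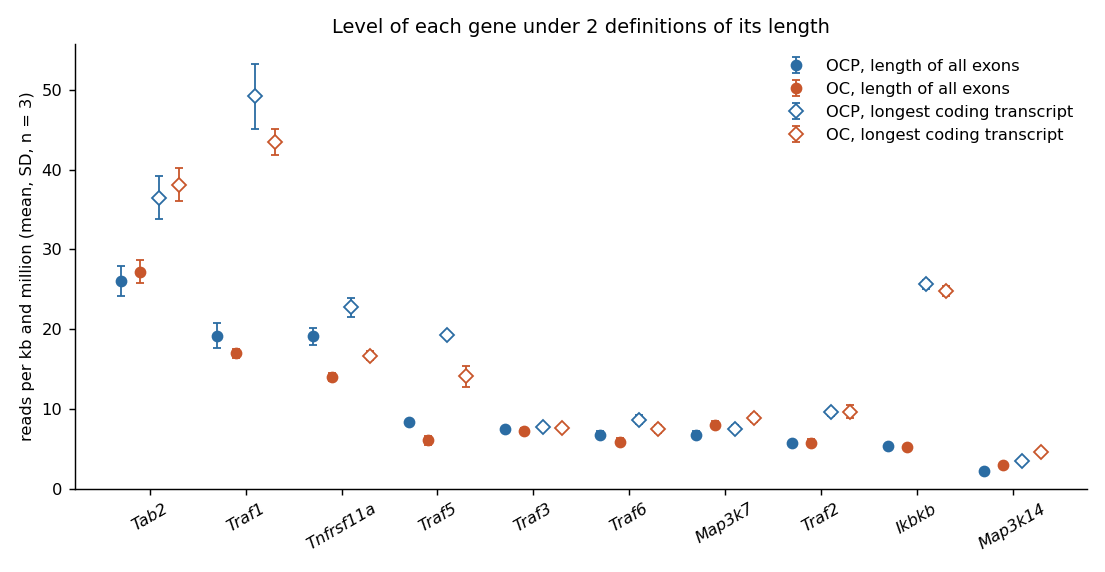
Level of each gene in OCP and OC, as mean and SD over 3 libraries per group, in RPKM with the authors' length of all exons (filled circles) and with the longest coding transcript (open diamonds). Ikbkb goes from 5.33 to 25.6 in OCP, while Traf3 stays near 7.42.

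By pattern across the 6 libraries, the tested genes most like Tnfrsf11a were Gm26816, Tax1bp3 and BC022960. Likeness was the root mean squared difference of log2(RPKM + 1) after centring each gene, over 6 libraries in 2 groups. It was 0.016 for Gm26816, 0.019 for Tax1bp3 and 0.023 for BC022960. The pseudocount of 1 shrinks genes at low levels, so likeness on this scale is not likeness in percent change. Tax1bp3 went from 7.52 ± 0.581 to 5.44 ± 0.158 RPKM, Gm26816 from 4.24 ± 0.197 to 2.97 ± 0.103 RPKM and BC022960 from 2.26 ± 0.155 to 1.37 ± 0.0883 RPKM.

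The rest of the pathway was described with 60 further genes in lists by role, of which 55 passed the filter and were tested. Of these, 20 rose, 15 fell and 20 did not pass, or 36.4% higher and 27.3% lower beside 23.5% and 32.1% over all tested genes. The shares over all tested genes are also the background for each list counted below. The median log2 fold change of the 55 genes was 0.05. Scaled with TMM factors, which correct for composition between libraries, 21 rose and 10 fell, beside 26.2% higher and 28.5% lower over all genes. Among the 45 with a mean of at least 5 RPKM, 14 rose and 15 fell, beside 22.8% and 40.2% over all such genes. Without OCP replicate 3, 17 rose and 10 fell.

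Among other receptors of the TNF family that draw on the same TRAF proteins, 4 of 7 tested rose and 2 fell. Tnfrsf1b, the second TNF receptor, which binds TRAF2, had the largest change, from 64.4 ± 3.32 to 110 ± 5.72 RPKM (log2 fold change 0.77, adjusted p = 1.9e-05). Cd40, the costimulatory receptor of antigen-presenting cells, rose from 9.41 ± 0.460 to 14.9 ± 0.442 RPKM (0.61). Tnfrsf12a, the receptor of the cytokine TWEAK, rose from 8.60 ± 0.827 to 10.8 ± 0.924 RPKM, a call lost without OC replicate 1 (adjusted p = 0.057, in a range of 0.0066 to 0.057). The rise was 71.1% for Tnfrsf1b and 58.1% for Cd40, beside the fall of 26.6% for the RANK transcript. The falls in this list were not stable, with 0 of the 2 left with TMM factors, by voom, or without OCP replicate 2, OCP replicate 3, OC replicate 2 or OC replicate 3. After quantile normalization, with no filter or with the replicate block, 1 was left. Of the rises, 2 were left without OC replicate 1, and between 3 and 4 under the other alternatives.

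Other TRAF proteins and adaptors went both ways, with 4 of 10 risen and 3 fallen (2 with TMM factors, 1 after quantile normalization). Traf4 was near silent in OCP, with 32, 22 and 16 reads, and had 185, 128 and 172 reads in OC. The means were 0.177 ± 0.0498 and 1.38 ± 0.218 RPKM, a ratio of means of 7.80. It reached the filter of 1 RPKM only in OC, so a gene at this level had to differ to be tested, and it is counted among the 4 without its p being given. It was the only one of the 55 genes of which this holds. Tifa, an adaptor that promotes TRAF6 oligomerization, rose from 3.05 ± 0.270 to 4.50 ± 0.459 RPKM (0.44). Tradd, the death-domain adaptor of the first TNF receptor, fell from 10.1 ± 0.743 to 6.72 ± 0.111 RPKM (-0.51).

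The next lists hold enzymes that build or remove ubiquitin chains. Of 9 ligases and conjugating enzymes, 2 rose and 1 fell. Birc3, an inhibitor-of-apoptosis ligase that acts with TRAF2, rose from 37.5 ± 1.10 to 46.6 ± 0.407 RPKM (log2 fold change 0.31), and its relative Xiap from 6.16 ± 0.827 to 8.00 ± 0.932 RPKM (0.33). The call of Xiap was lost with no filter and without OCP replicate 2, OCP replicate 3 or OC replicate 3 (adjusted p from 0.052 to 0.078, in a range of 0.0012 to 0.078 over all alternatives). Ube2v1, a partner of the enzyme that builds chains with TRAF6, went from 80.5 ± 4.81 to 64.8 ± 2.73 RPKM, but 61.5% of its length is shared with Gm20431, so its value is uncertain. Of 7 deubiquitinases and other brakes, 4 fell and 1 rose, with 3 fallen under TMM factors. Usp4 fell from 20.1 ± 0.493 to 15.2 ± 0.556 RPKM (-0.38), Otulin, which removes linear chains, from 59.7 ± 3.33 to 47.2 ± 2.71 RPKM (-0.33), and Tnip1, a ubiquitin-binding inhibitor of NF-kB, from 241.6 ± 11.02 to 204 ± 11.4 RPKM (-0.25).

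Kinases and partners beside TAK1 and IKK-beta went both ways. Neither Tab1 nor Tab3, the other partners of TAK1, passed. Of 4 other IKK-family genes 2 rose and 1 fell. Chuk, which encodes IKK-alpha, the kinase that NIK activates, rose from 4.56 ± 0.338 to 6.26 ± 0.708 RPKM (log2 fold change 0.38, adjusted p = 0.0053), and Ikbke from 10.0 ± 0.478 to 12.2 ± 0.708 RPKM (0.26). Ikbkg, the regulatory subunit NEMO, fell from 36.1 ± 1.48 to 31.4 ± 0.871 RPKM (-0.20). Its exons share 418 bases, 5.15% of its length, with the antisense gene G6pdx, and reads there cannot be assigned to one gene. G6pdx was at 89.8, 100.6 and 93.9 RPKM in OCP and 105.2, 104.4 and 100.8 RPKM in OC. In the MAP kinase arm 3 of 8 rose and 2 fell (4 and 1 with TMM factors). Map3k8 rose from 2.07 ± 0.273 to 3.93 ± 0.366 RPKM (0.68) and Map3k1 from 3.57 ± 0.246 to 5.59 ± 0.155 RPKM (0.53), whereas Map2k3, an activator of the p38 kinases, fell from 32.9 ± 1.81 to 21.4 ± 1.33 RPKM (-0.60).

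At the outputs, 4 of 8 genes rose and 2 fell, where 23.5% of all tested genes rose and 32.1% fell. Those that rose were Rel, Nfkb1 and the NF-kB inhibitor genes Nfkbia and Nfkbie. Nfkbia, the most abundant of them, went from 274 ± 8.54 to 330 ± 3.49 RPKM. Without OCP replicate 3, OC replicate 1 or OC replicate 3, 3 rose, and after quantile normalization 5 rose. Nfatc1, the transcription factor that RANK signalling switches on to drive osteoclast genes, fell from 94.8 ± 4.03 to 61.6 ± 1.14 RPKM (log2 fold change -0.61, adjusted p = 2.1e-05). Rela, the main activating NF-kB subunit, fell from 38.2 ± 3.03 to 30.1 ± 1.05 RPKM (-0.33), and Rel rose from 4.80 ± 0.519 to 6.81 ± 0.209 RPKM (0.43). Nfatc1 is also on the osteoclast marker list.

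**Figure D4:**
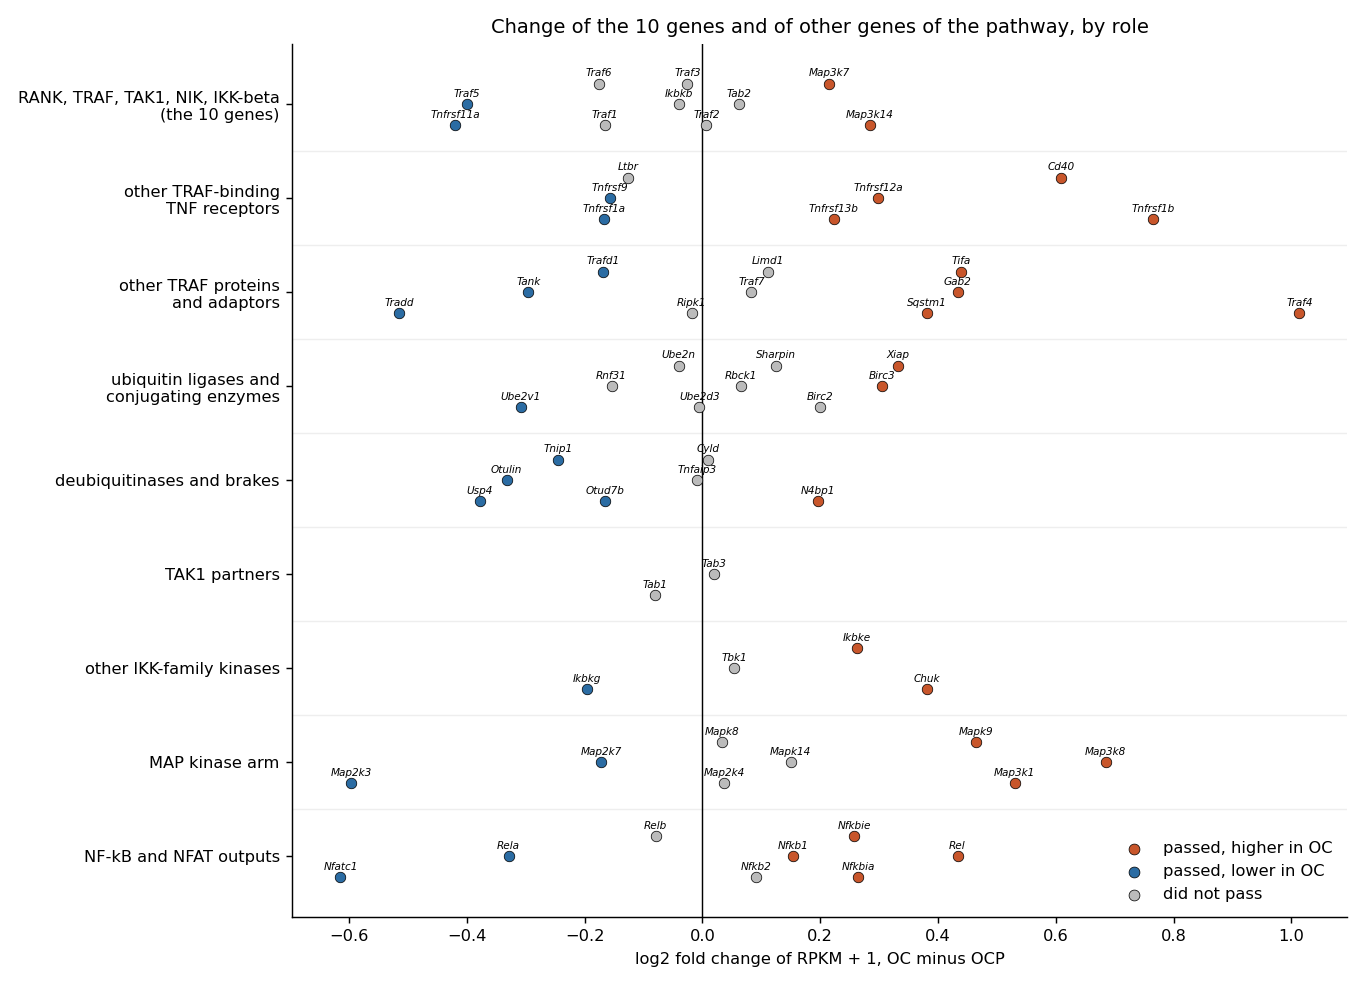
Log2 fold change of RPKM + 1, OC minus OCP (horizontal axis), of the 10 genes (top row) and of the 55 tested genes of the role lists (other rows), with 1 point per gene, coloured by whether it passed at an adjusted p under 0.05. The 10 genes lie between -0.42 and 0.28, and Traf4, which reached the filter only in OC, is farthest to the right at 1.01. Vertical offsets within a row only separate the names.

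The 6 libraries held between 33219178 and 42121216 reads assigned to genes. By a chi-square of the reads over genes, OCP replicates 1 and 2 differed most within a group, at 19.6 per degree of freedom. The other pairs within a group were at 4.88 to 8.71, and pairs between groups at 135 to 172. Counting error alone would give about 1, so all pairs differed by more than that. Most osteoclast markers were abundant in both groups, but all were lower in the libraries labelled OC, with 10 of 10 fallen. Their summed level was 5104 to 5261 RPKM in OCP and 2730 to 2815 RPKM in OC, most of it Ctsk. Calcr was at most 3.03 RPKM in any library.  Macrophage and monocyte markers rose in 7 and fell in 2 of 9 tested cases, with 3 of the 7 (Cx3cr1, Mrc1 and Ccr2) at 1 RPKM only in OC (summed 1379 to 1448 and 1532 to 1599 RPKM), with Cd68, the most abundant, at 854 ± 31.3 and 721 ± 20.9 RPKM. Stress and immediate early genes rose in 7 of 8 (summed 93.9 to 102 and 266 to 280 RPKM), led by Atf3 at 19.8 ± 1.03 and 123 ± 7.18 RPKM, and 3 of 3 tested neutrophil genes rose (summed 34.5 to 38.1 and 49.1 to 53.4 RPKM), with S100a9 at 23.2 ± 1.37 and 31.9 ± 1.98 RPKM. Their part in the changes of the 10 genes was not tested.

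Lymphocytes also express Traf1 and Traf5, and the part of such cells in their levels was not tested. Cd3d, Cd3e and Cd3g were each listed at 0 in 5 of 6 libraries. Of the B cell genes, Ms4a1 was at 0 in 4 of 6, Ebf1 in 3 and Cd79a in 2. Cd79b, Pax5 and Vpreb1 were at 0 in none. The 6 T and NK cell markers in the table summed to between 1.67 and 2.21 RPKM in OCP and between 2.24 and 2.87 RPKM in OC, most of it Trac and, in OC, Lck. Trac and Lck were the only members of this list tested, and Lck reached the filter only in OC. The 6 B cell markers summed to between 3.59 and 4.27 and between 2.75 and 3.40 RPKM, most of it Vpreb1, at 3.80 ± 0.362 and 2.91 ± 0.254 RPKM. Dendritic, endothelial and erythroid markers each summed to at most 3.06 RPKM in any library. Their most abundant members were Ccr7 at 1.22 ± 0.356 and 0.788 ± 0.137 RPKM, Kdr at 1.75 ± 0.125 and 1.54 ± 0.131 RPKM and Hbb-bs at 0.0901 ± 0.0832 and 0.148 ± 0.130 RPKM, and of the stromal markers Col1a1 at 0.851 ± 0.0219 and 1.01 ± 0.116 RPKM.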

How the data were processed

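The deposited values are RPKM. Per the submitters' processing notes, the authors trimmed reads with Trimmomatic 0.36, aligned them with STAR 2.5.3a and assigned them to genes with featureCounts. The notes name the human build GRCh38, but the table lists mouse genes: 95.8% of its symbols are in GENCODE M21 and 22305 have the same start and end there, and positions are those of GRCm38. The strand setting, reads that map to several places and the handling of PCR duplicates are not given in the sources used here. RPKM times gene length gave whole reads for 100% of values within 0.01 reads.

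Of the genes, those that reached 1 RPKM in 3 or more libraries were compared on log2(RPKM + 1) with limma 3.58.1 (R 4.3.3, trend and robust options, two-sided), with Benjamini-Hochberg adjustment over all tested genes and a threshold of 0.05. The steps were tested on simulated data. Ratios within libraries were compared by an exact permutation test. Intervals are 95% limma intervals.

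The members, lists and rules were chosen with earlier results of these data known. The text names all 10 members, Tnfsf11 and Tnfrsf11b, up to 3 called genes with the largest change in each role list, the most abundant gene of each marker list, and the 3 genes most like Tnfrsf11a. Lgr4, Tab1, Tab3, Lck, Cx3cr1, Mrc1, Ccr2, Cd3d, Cd3e, Cd3g, Ms4a1, Ebf1, Cd79a, Cd79b, Pax5 and Calcr and the overlapping genes were added to the text with their values known. Nfkb1, Nfkbia and Nfkbie were added in the same way. The alternatives changed the scaling (quantile normalization, TMM factors), the pseudocount (0.1, 0.01), the filter (none, or a mean of 5 RPKM or more) or the model (no trend and robust options, a block for the replicate number, voom on recovered reads), or left out 1 library.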

Additional observations from a re-analysis of the deposited data

How the results depend on the processing

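The directions of Tnfrsf11a, Traf5 and Map3k14 and their side of the threshold were the same under all alternatives that tested them (15, 15 and 14), with log2 fold changes of -0.45 to -0.38, -0.46 to -0.34 and 0.22 to 0.44. With a mean of at least 5 RPKM, which leaves Map3k14 untested, 1 member and 1645 of all genes were higher, and Traf1 passed at -0.17 (adjusted p = 0.0496). Traf6 passed at -0.19 after quantile normalization and at -0.16 by voom. Traf2 turned to -0.012 after quantile normalization, and Traf3 to 0.011 with TMM factors and 0.014 by voom, none of them near the threshold. The cause of these changes was not tested. Leaving out 1 library gave 1 to 2 members higher and 2 to 3 lower, log2 fold changes of -0.23 to -0.11 for Traf1, -0.044 to 0.054 for Traf2, -0.056 to -0.00061 for Traf3, -0.21 to -0.13 for Traf6 and 0.18 to 0.26 for Map3k7, and 2524 to 2932 genes higher and 3370 to 3784 lower. The difference, OC minus OCP, in the ratio of Traf3 to Traf2 was -0.055 to 0.00062, and that in the share of Traf1 -1.02 to 0.92 percentage points, or -0.037 from the group means. Of the 21 called role-list genes named, 19 passed under every alternative that tested them. These 21 were picked for the largest changes in their lists, so this share does not describe the called genes left unnamed. Traf4, which reached the filter only in OC and so had to differ to be tested, is among the 19. With the replicate number as a block, 2 members rose and 3 fell, Traf6 among them at -0.18 (adjusted p = 0.043), and 2827 genes were higher and 3851 lower. The deviations of same-numbered libraries from the group means correlated at -0.11, 0.14 and 0.01 (others -0.28 to 0.26), so the numbers were not taken to pair the libraries. The 10 genes had 554 to 7265 reads each per library. Counting error was set against the spread between libraries over all genes, by the chi-square above, but not for single genes. Levels, ratios and shares by the length of the longest coding transcript were an alternative added after seeing the data.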
